A study of Mus musculus with 16 samples.

Results

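The enzymes and the chaperone that modify collagen were described in AML12 cells, a mouse hepatocyte line that forms no tumours. There are 10 genes: the prolyl 4-hydroxylase alpha subunits P4ha1, P4ha2 and P4ha3, the lysyl hydroxylases Plod1, Plod2 and Plod3, the collagen chaperone Serpinh1, and the lysyl oxidases Lox, Loxl1 and Loxl2. They were taken by the gene name printed on the array, with no cut on signal, from 30214 gene names. The set itself was chosen with earlier results of these data known. All 10 were among the 19367 genes with a probe that passed the detection filter, which asked for a signal well above background on 2 or more of the 4 arrays of some group. The study asked which mRNAs move on or off polysomes when the initiation factor eIF6, which keeps the large ribosomal subunit from joining too early, is lowered in insulin-treated hepatocytes.

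The cells carried a lentiviral shRNA under a doxycycline-inducible promoter, directed either against eIF6 or at no target (scramble). All groups received doxycycline and then insulin for 1 h, which the labels give as 100 nM in one field and as 100 mM in another. The medium of every group also held an insulin-transferrin-selenium supplement, dexamethasone and fetal bovine serum. The line is labelled male, and whether the infected cells were a clone or a pool is not given in the sources used here. Sucrose gradients separated mRNAs on polysomes from the lighter, subpolysomal part, and each RNA was hybridized alone to a one-colour Agilent mouse array. The 4 groups, scramble or eIF6 shRNA in polysomal or subpolysomal RNA, had 4 arrays each, which the study describes as biological replicates. The p values measure the spread between these samples. The 16 arrays lay on 4 slides, with 1 array of each group on a slide. Array signal has no counting error, and precision is limited by the number of arrays.

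Values are log2 intensities, quantile normalized over all arrays, with the mean of its probes for a gene, so a difference of 1 is a doubling. Differences between shRNAs are eIF6 shRNA minus scramble, called the polysomal and the subpolysomal change by the RNA they were measured in. Their difference, polysomal minus subpolysomal change, is the change in translational efficiency. Each was tested with limma over all genes, and a gene was called at a Benjamini-Hochberg adjusted p under 0.05. Errors beside log2 changes are standard errors from the same limma fit. Signal depends on the probe, so levels were compared between groups for 1 gene and never between genes.

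Probes well above background numbered 20196 to 24960 per array, and no spot was saturated. The arrays farthest from their own group were scramble polysomal replicate 4, eIF6 shRNA polysomal replicate 4 and scramble subpolysomal replicate 4, with median deviations of 0.285, 0.268 and 0.204 (log2) against 0.115 to 0.187 for the other arrays. Calls that end or begin without one of them are given beside the result. Eif6, the targeted mRNA, was lower on polysomes (log2 change -1.05 ± 0.08, limma adjusted p = 1.46e-07). In subpolysomal RNA its log2 change was 0.015 ± 0.079 (limma adjusted p = 0.915). Among 8 hepatocyte markers, Hnf4a, Trf, Ttr, Apob, Krt8 and Krt18 were well above background on all 16 arrays, Alb on 7 and Apoa1 on 3.

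Collagen chains are made in the endoplasmic reticulum, where prolyl 4-hydroxylases modify prolines so that the triple helix is stable, and lysyl hydroxylases modify lysines that later carry sugars and cross-links. These hydroxylases need oxygen, iron, 2-oxoglutarate and ascorbate. Serpinh1, also called HSP47, binds the folded helix until it leaves for the Golgi. Outside the cell, lysyl oxidases, which are copper enzymes, oxidize lysines so that collagen and elastin become cross-linked. In liver, stellate cells and fibroblasts are known as the main source of fibrillar collagen and its cross-linking enzymes, and this machinery is best known from fibrosis.

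The array read these genes with 18 probes of 60 bases, of which 17 passed the filter and 15 were well above background on all 16 arrays. Every gene had at least 1 of those 15. Loxl1 and Loxl2 are related in sequence and moved in opposite directions after eIF6 shRNA, so the probes that tell them apart are printed here, in mm9 as the files give them, 5′ to 3′ in the sense of the mRNA. Capitals mark the longest run of bases that a probe shares with a printed probe of the other gene.

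Loxl1, chr9:58145451-58145510, minus strand: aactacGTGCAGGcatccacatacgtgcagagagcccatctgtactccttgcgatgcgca

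Loxl1, chr9:58138570-58138629, minus strand: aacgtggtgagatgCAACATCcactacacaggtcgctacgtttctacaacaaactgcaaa

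Loxl2, chr14:70090017-70090076, plus strand: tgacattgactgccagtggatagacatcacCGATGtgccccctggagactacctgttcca

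Loxl2, chr14:70092141-70092200, plus strand: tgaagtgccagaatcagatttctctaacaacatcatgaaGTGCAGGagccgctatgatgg

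The shared runs were 7, 7, 5 and 7 bases in the order printed. Over all 143 pairs of probes of different members, the longest shared run was 9 of 60 bases. The 2 probes of P4ha3 are printed because they gave changes of unequal size, and the capitals in the second mark the stop codon at its end.

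P4ha3, chr7:107463120-107463179, plus strand: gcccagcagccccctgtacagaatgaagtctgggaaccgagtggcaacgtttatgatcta

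P4ha3, chr7:107467431-107467490, plus strand: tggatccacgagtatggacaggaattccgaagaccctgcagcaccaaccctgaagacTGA

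These 6 probes each span 60 consecutive bases of the genome, without an intron. The files place the first P4ha3 probe at base 1344 of its transcript and the second at base 1582.

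**Figure D1:**
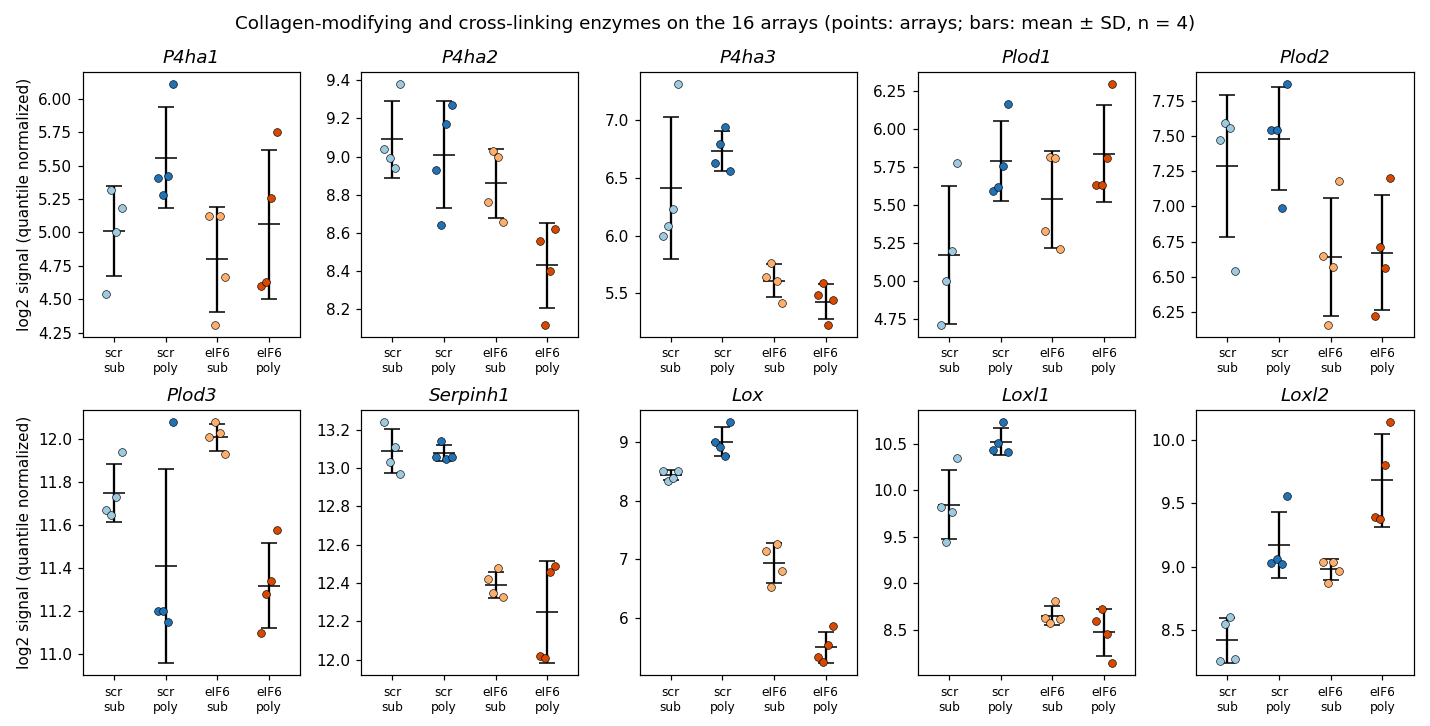
Log2 normalized signal (y axis, each panel with its own range) of the 10 members, 1 panel a gene, in the 4 groups (x axis; scr, scramble; sub, subpolysomal; poly, polysomal). Points are arrays and bars are the mean ± SD of 4 arrays. Lox falls from 9.0 to 5.51 on polysomes, and Loxl2 is the only panel in which the eIF6 shRNA means lie above the scramble means in both fractions with both changes called.

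Of the 10 members, 6 changed on polysomes, where 21.8% of all genes were called. P4ha2, P4ha3, Serpinh1, Lox and Loxl1 were lower (10.7% of all genes were called lower) and Loxl2 was higher (11.1% of all genes were called higher). The median polysomal change of the 10 was -0.695 (log2), against 0.0155 over all genes tested. Since the set was chosen with earlier results known, its shares and medians beside all genes are descriptions. In subpolysomal RNA 5 of 10 changed, where 24.2% of all genes were called. P4ha3, Serpinh1, Lox and Loxl1 were lower there (12.3% of all genes) and Loxl2 was higher (11.9%), with a median of -0.436 against 0.0249 over all genes. The 4 arrays of each shRNA did not overlap on polysomes for P4ha2, P4ha3, Serpinh1, Lox and Loxl1 (22.4% of all genes had no overlap). In subpolysomal RNA they did not overlap for P4ha3, Serpinh1, Lox, Loxl1 and Loxl2 (31.5% of all genes).

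The amount of RNA per array is set equal by quantile normalization. With scaling to 7 spike-in probes in its place, the median of all genes shifted to -0.474 on polysomes and -0.227 in subpolysomal RNA, and fewer members were called. Over all genes, 2073 were called lower and 2148 higher on polysomes with quantile normalization, and 1056 and 101 with spike-in scaling. In subpolysomal RNA these numbers were 2391 and 2295, and 347 and 43. The members called with spike-in scaling were Lox, Loxl1 and P4ha3 on polysomes and Lox in subpolysomal RNA, each lower. All statements on these comparisons are relative to the median of all genes.

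Of the lysyl oxidases, Lox, the founding member of the family, changed most. Its log2 signal on polysomes was 9.0, 8.90, 8.75 and 9.33 on the scramble arrays (replicates 1 to 4) and 5.35, 5.26, 5.55 and 5.87 on the eIF6 shRNA arrays. Every eIF6 shRNA array lay below every scramble array, with no overlap. The means were 9.0 ± 0.24 and 5.51 ± 0.27 (SD, n = 4 each). Lox fell by 3.49 ± 0.17 on the log2 scale, or 11.2-fold (limma adjusted p = 2.34e-09). A two-sided exact permutation test of 4 against 4 arrays gave p = 0.0286, the smallest that its 70 splits allow. Within the slides the difference ran from -4.07 to -3.14 and was below 0 on 4 of 4 slides.

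In subpolysomal RNA the log2 signal of Lox was 8.50, 8.33, 8.38 and 8.50 on the scramble arrays and 7.14, 6.53, 7.27 and 6.81 on the eIF6 shRNA arrays. The groups were again separate. Lox fell by 1.49 ± 0.17 there (log2, limma adjusted p = 1.55e-05). The polysomal decrease was therefore larger than the subpolysomal one, and the change in translational efficiency was -2.0 ± 0.24 (log2, limma adjusted p = 0.000485). With another background correction (normexp) the size was smaller, with a polysomal change of -2.29, a change in translational efficiency of -1.18 and a limma adjusted p of 0.000302. With spike-in scaling the change in translational efficiency was -2.57 (log2) and was not called (limma adjusted p = 0.128).

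In scramble cells the mean log2 signal of Lox was 0.57 ± 0.17 higher on polysomes than in subpolysomal RNA (limma adjusted p = 0.00973), and in eIF6 shRNA cells it was 1.43 ± 0.17 lower (limma adjusted p = 4.53e-06), so the order of the fractions turned. With spike-in scaling these differences were 2.25 and -0.311, and the second was not called (limma adjusted p = 0.609). Its 2 probes gave like polysomal changes, -3.30 and -3.68 (log2). They did not give the same fraction difference in scramble cells, which was 1.06 for one probe (limma adjusted p = 1.82e-05) and 0.079 for the other (limma adjusted p = 0.787). The loss in translational efficiency was called for both probes, at -2.28 (limma adjusted p = 7.78e-05) and -1.72 (limma adjusted p = 0.0159).

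Loxl1 is best known for the cross-linking of elastin. Its polysomal log2 signal was 10.43, 10.51, 10.73 and 10.41 in scramble and 8.59, 8.72, 8.45 and 8.14 in eIF6 shRNA cells. All eIF6 shRNA arrays were below all scramble arrays. Loxl1 fell by 2.04 ± 0.17 on polysomes, or 4.13-fold (limma adjusted p = 3.30e-07).

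In subpolysomal RNA the log2 signal of Loxl1 was 9.82, 9.44, 9.76 and 10.34 in scramble cells and 8.62, 8.57, 8.81 and 8.61 in eIF6 shRNA cells. The groups did not overlap, and the decrease was smaller than on polysomes, at -1.19 ± 0.17 (log2, limma adjusted p = 0.000101). The change in translational efficiency was -0.858 ± 0.234 (log2) and missed the threshold (limma adjusted p = 0.0965), with a 95% interval of -1.36 to -0.358. It was below 0 on 4 of 4 slides (-1.47 to -0.38). It was called in some other settings, and without scramble subpolysomal replicate 4, the highest of its group, it was -1.02 (limma adjusted p = 0.0173).

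The 2 printed Loxl1 probes moved alike, by -1.94 and -2.15 on polysomes (log2, limma adjusted p = 1.25e-05 and 8.52e-09). For the second of them, the change in translational efficiency was called (-0.877, limma adjusted p = 0.0181). For the first it was -0.840 (log2, limma adjusted p = 0.275).

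Loxl2, a lysyl oxidase with scavenger receptor domains, went the other way. Its polysomal log2 signal was 9.03, 9.06, 9.02 and 9.56 in scramble cells and 9.39, 9.38, 9.80 and 10.14 in eIF6 shRNA cells. The groups overlapped through scramble replicate 4, which was above 2 of the eIF6 shRNA arrays. Loxl2 rose by 0.512 ± 0.168 (log2, limma adjusted p = 0.0409). The call was not firm, since the exact permutation test gave p = 0.0857, the change was below 0 on 1 of 4 slides, and without eIF6 shRNA polysomal replicate 4 it was 0.358 (limma adjusted p = 0.112).

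In subpolysomal RNA the log2 signal of Loxl2 was 8.26, 8.55, 8.60 and 8.27 in scramble and 9.04, 8.87, 9.04 and 8.97 in eIF6 shRNA cells. These groups did not overlap, and the change was above 0 on every slide, from 0.44 to 0.71. Loxl2 rose by 0.560 ± 0.168 (log2, limma adjusted p = 0.0245), and without scramble subpolysomal replicate 4 it was 0.510 (limma adjusted p = 0.0608). With spike-in scaling the polysomal and subpolysomal log2 changes of Loxl2 were 0.059 and 0.246, and neither was called. The change in translational efficiency was -0.048 ± 0.237 (log2, limma adjusted p = 0.97), with a 95% interval of -0.555 to 0.460. Its 3 probes had polysomal changes of 0.475, 0.536 and 0.525 (log2), of which the first, printed as chr14:70090017-70090076, was called alone (limma adjusted p = 0.0225).

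**Figure D2:**
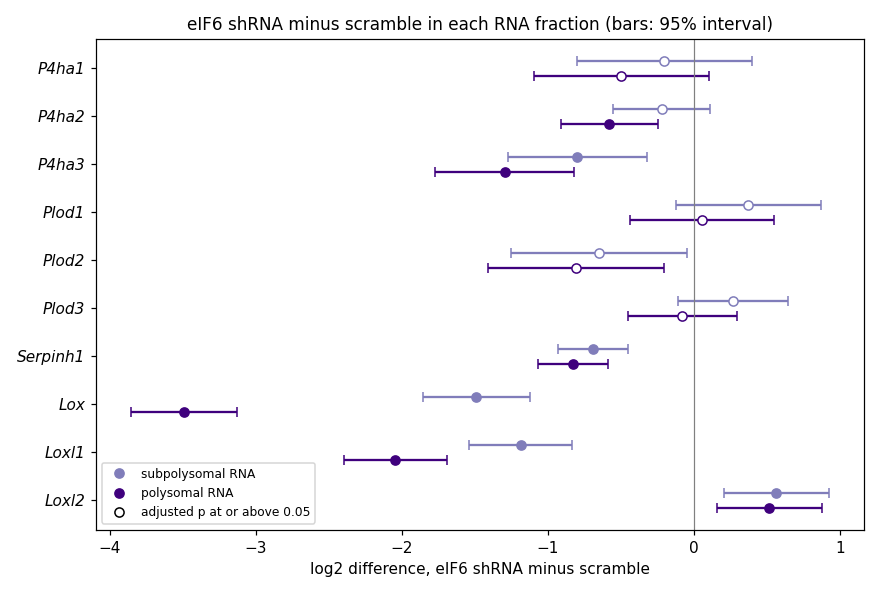
Log2 difference, eIF6 shRNA minus scramble (x axis), in polysomal (dark) and subpolysomal (light) RNA for each member (y axis), with 95% intervals from limma. Filled points are called at an adjusted p under 0.05: the largest decrease is Lox on polysomes at -3.49, and both Loxl2 points, 0.512 and 0.560, lie above 0.

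Serpinh1 was the collagen chaperone of the list. Its SD was 0.041 to 0.116 (log2) in 3 of the groups and 0.267 on eIF6 shRNA polysomal arrays, where 2 arrays lay apart from the other 2. On polysomes its log2 signal was 13.06, 13.14, 13.05 and 13.06 in scramble and 12.02, 12.01, 12.46 and 12.49 in eIF6 shRNA cells. In subpolysomal RNA it was 13.24, 13.03, 13.11 and 12.97 in scramble and 12.42, 12.35, 12.48 and 12.33 in eIF6 shRNA cells. In both fractions all eIF6 shRNA arrays lay below all scramble arrays. Serpinh1 fell by 0.83 ± 0.11 on polysomes (log2, 1.78-fold, limma adjusted p = 5.75e-05) and by 0.693 ± 0.112 in subpolysomal RNA (limma adjusted p = 0.000357). The change in translational efficiency was -0.136 ± 0.158 (log2, limma adjusted p = 0.798), with a 95% interval of -0.474 to 0.202. With spike-in scaling the decreases were -1.28 and -0.916 (log2), and neither was called (limma adjusted p = 0.144 and 0.803).

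The prolyl 4-hydroxylase alpha subunits carry the catalytic site and pair with the beta subunit P4hb. P4ha3 changed most of the 3. Its polysomal log2 signal was 6.63, 6.79, 6.94 and 6.56 in scramble and 5.49, 5.59, 5.23 and 5.44 in eIF6 shRNA cells. The groups were separate, and P4ha3 fell by 1.30 ± 0.22 (log2, 2.46-fold, limma adjusted p = 0.000529). With normexp this was -0.667 (limma adjusted p = 0.0018), and with spike-in scaling -1.96 (limma adjusted p = 0.0028).

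In subpolysomal RNA the log2 signal of P4ha3 was 6.0, 6.08, 6.23 and 7.31 in scramble and 5.64, 5.76, 5.61 and 5.42 in eIF6 shRNA cells. The scramble arrays were all above the eIF6 shRNA arrays, but replicate 4 stood far above its own group. The log2 change was -0.800 ± 0.223 (limma adjusted p = 0.0167), and without scramble subpolysomal replicate 4 it was -0.498 (limma adjusted p = 0.00807). It was -0.453 with normexp (limma adjusted p = 0.0234) and was not called with spike-in scaling (limma adjusted p = 0.619). The change in translational efficiency was -0.497 ± 0.315 (log2, limma adjusted p = 0.576) with that array and -0.800 (limma adjusted p = 0.0273) without it.

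The 2 P4ha3 probes printed above differed in size of change. The upstream probe had a polysomal log2 change of -0.825 ± 0.301 (limma adjusted p = 0.068), and the probe that ends on the stop codon had -1.77 ± 0.16 (limma adjusted p = 1.45e-06). In subpolysomal RNA they had -0.486 (limma adjusted p = 0.276) and -1.11 (limma adjusted p = 0.000175). Both directions were the same, and the call for the gene rests mainly on the second probe.

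P4ha2 had a polysomal log2 signal of 8.93, 8.64, 9.17 and 9.27 in scramble and 8.56, 8.12, 8.40 and 8.62 in eIF6 shRNA cells. The groups came close but did not overlap, and P4ha2 fell by 0.580 ± 0.155 (log2, limma adjusted p = 0.0136). With spike-in scaling it was -1.07 and was not called (limma adjusted p = 0.311). In subpolysomal RNA P4ha2 ranged from 8.94 to 9.38 in scramble and from 8.66 to 9.03 in eIF6 shRNA cells, with a log2 change of -0.223 ± 0.155 (limma adjusted p = 0.335). The difference between those changes was not called, since the change in translational efficiency was -0.357 ± 0.219 (log2, limma adjusted p = 0.565).

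P4ha1, the alpha subunit found in most tissues, did not pass the test in any comparison. Its polysomal log2 signal was 5.28 to 6.11 in scramble and 4.60 to 5.75 in eIF6 shRNA cells, which overlap, with a change of -0.498 ± 0.279 (log2, limma adjusted p = 0.252, 95% interval -1.10 to 0.100). One of its 2 probes was well above background on 4 of 16 arrays, 3 of them scramble polysomal arrays. That dim probe passed the filter through the scramble polysomal arrays alone, so its difference between fractions is not read. The other probe, well above background everywhere, had a polysomal log2 change of -0.402 (limma adjusted p = 0.174). Its polysomal minus subpolysomal difference in scramble cells was 0.049 (log2, limma adjusted p = 0.839).

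The lysyl hydroxylases were the group of members with no call after eIF6 shRNA. Plod2, which hydroxylates lysines in collagen telopeptides, came closest. Its polysomal log2 signal was 7.54, 7.54, 6.99 and 7.87 in scramble and 6.22, 6.71, 6.56 and 7.20 in eIF6 shRNA cells. These groups overlapped through 1 array of each, and the change was -0.811 ± 0.282 (log2, limma adjusted p = 0.0537, 95% interval -1.41 to -0.208). In subpolysomal RNA the change was -0.650 ± 0.282 (log2, limma adjusted p = 0.111), with scramble replicate 4 at 6.54 and the other scramble arrays at 7.47 to 7.59. With the slide as a block Plod2 was called in both fractions (limma adjusted p = 0.0046 and 0.0157), and within slides both changes were below 0 on 4 of 4 slides. Without scramble subpolysomal replicate 4 both were also called, at -0.811 and -0.901 (limma adjusted p = 0.025 and 0.022), and without eIF6 shRNA polysomal replicate 4 the polysomal change was -0.987 (limma adjusted p = 0.0249).

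Plod1 and Plod3 act on lysines of the helix, and Plod3 also adds sugars to hydroxylysine. Plod1 had a polysomal log2 change of 0.054 ± 0.231 (limma adjusted p = 0.915, 95% interval -0.439 to 0.548) and a subpolysomal one of 0.371 ± 0.231 (limma adjusted p = 0.275). One of its 3 probes was not well above background on any array and took no part. Plod3 had a polysomal log2 change of -0.081 ± 0.175 (limma adjusted p = 0.819, 95% interval -0.456 to 0.293) and a subpolysomal one of 0.264 ± 0.175 (limma adjusted p = 0.308). The sign of the polysomal change depended on the setting for both genes.

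Translational efficiency was called for 1 of the 10 members, Lox, where 1.51% of all genes were called and 1.1% were called lower (0.403% higher). Over all genes 214 were called lower and 78 higher, against 408 and 57 with the 75th percentile and 31 and 2 with spike-in scaling. All 10 members had a change below 0, as did 47.5% of all genes, and their median was -0.331 (log2) against 0.017 over all genes. The signs of Loxl2, P4ha1 and Plod2 flipped in some settings. The polysomal to subpolysomal ratios, formed between arrays of the same replicate number, did not overlap between shRNAs for Lox alone (7.97% of all genes), and its two-sided exact permutation test gave p = 0.0286. The titles number the arrays of both fractions alike and do not say whether equal numbers came from the same gradient. The main fit did not use the numbers, while these ratios and their test rest on that matching. With the replicate number as a block within each shRNA, Lox was still called, at -2.0 (log2, limma adjusted p = 0.0134). Over all genes that fit called 102 lower and 27 higher.

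**Figure D3:**
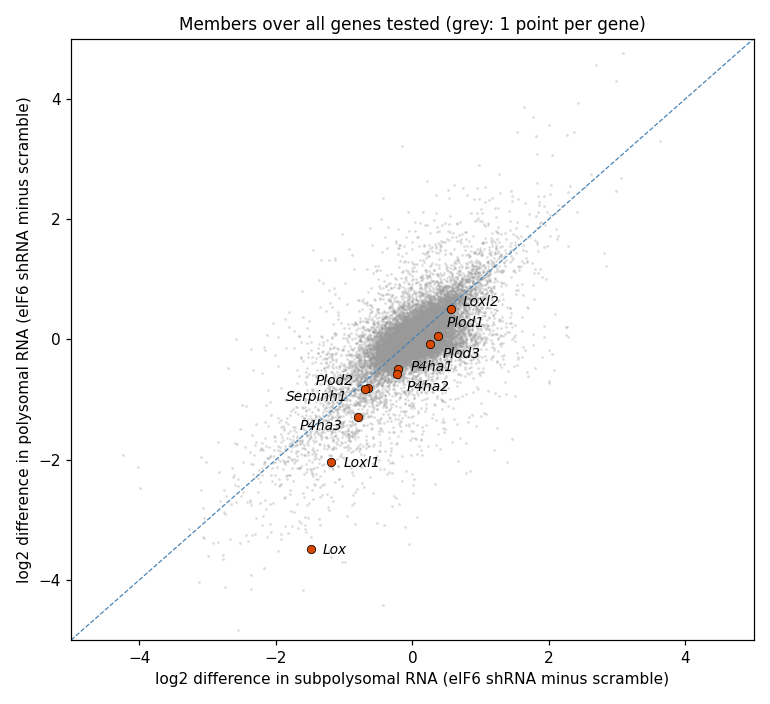
Subpolysomal change (x axis) against polysomal change (y axis), both log2 eIF6 shRNA minus scramble, with 1 grey point per gene tested and the members in colour and named. The dashed line marks equal changes, and 6 genes lie outside the plotted range of 5. Lox and Loxl1 lie at -3.49 and -2.04 on the polysomal axis, below the line.

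The second question of the design is where each mRNA lies on the gradient in cells of 1 shRNA. In scramble cells 4 members, Plod1, Lox, Loxl1 and Loxl2, were higher in polysomal than in subpolysomal RNA (60.1% of all genes were called and 31.7% called higher), and none of the 10 was called lower (28.4% of all genes). Their log2 differences were 0.615 ± 0.231, 0.570 ± 0.171, 0.681 ± 0.165 and 0.744 ± 0.168. In eIF6 shRNA cells 1 member, Loxl2, was called higher (60.8% of all genes were called, 32.1% higher and 28.7% lower) and 3 were called lower, P4ha2, Plod3 and Lox. The shares called are near or below the share over all genes.

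These fraction differences depend on how the arrays were scaled. Spike-in scaling moved the median of all genes to 1.52 in scramble and 1.30 in eIF6 shRNA cells (log2), and scaling to the 75th percentile moved it to -0.339 and -0.371. In scramble cells 5498 genes were called lower and 6138 higher with quantile normalization, 398 and 13411 with spike-in scaling, and 8473 and 4115 with the 75th percentile. In eIF6 shRNA cells these numbers were 5553 and 6224, 494 and 11224, and 8917 and 3988. With spike-in scaling all 10 members were called higher on polysomes in scramble cells, and 6 were called higher and none lower in eIF6 shRNA cells. Which fraction held more of an mRNA is therefore given only relative to other mRNAs.

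Loxl2 was on the polysomal side in both kinds of cell. The polysomal minus subpolysomal difference was 0.744 ± 0.168 (log2, limma adjusted p = 0.00139) in scramble and 0.697 ± 0.168 (limma adjusted p = 0.00226) in eIF6 shRNA cells. With its brightest probe alone the scramble difference was 0.436 (limma adjusted p = 0.112). Loxl1 was higher on polysomes in scramble cells (0.681 ± 0.165, limma adjusted p = 0.00244) and had -0.178 ± 0.165 in eIF6 shRNA cells (limma adjusted p = 0.372). Plod1 was called in scramble cells (limma adjusted p = 0.032), and without scramble polysomal replicate 4 it was 0.487 (limma adjusted p = 0.0988). With the 75th percentile Plod1 was at 0.024 (limma adjusted p = 0.935), and over all alternatives it was called in 11 of 19. P4ha3 had a scramble difference of 0.326 ± 0.223 (log2, limma adjusted p = 0.224), and without scramble subpolysomal replicate 4 it was called, at 0.628 (limma adjusted p = 0.00045).

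Plod3 lay on the subpolysomal side in eIF6 shRNA cells. Its log2 signal there was 12.01, 12.08, 12.03 and 11.93 in subpolysomal and 11.10, 11.28, 11.34 and 11.58 in polysomal RNA. The fractions were separate, with a difference of -0.688 ± 0.175 (log2, limma adjusted p = 0.00333). In scramble cells its polysomal arrays were at 11.20, 11.20, 11.15 and 12.08 and its subpolysomal arrays at 11.67, 11.65, 11.73 and 11.94. Polysomal replicate 4 alone was above the subpolysomal arrays. The difference was -0.342 ± 0.175 (log2, limma adjusted p = 0.106), and without that array it was -0.567 (limma adjusted p = 0.000388). P4ha2 in eIF6 shRNA cells was lower on polysomes by a smaller step, -0.439 ± 0.155 (log2, limma adjusted p = 0.0236). With spike-in scaling the differences of Plod3 and P4ha2 in eIF6 shRNA cells turned to 1.02 and 1.05.

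**Figure D4:**
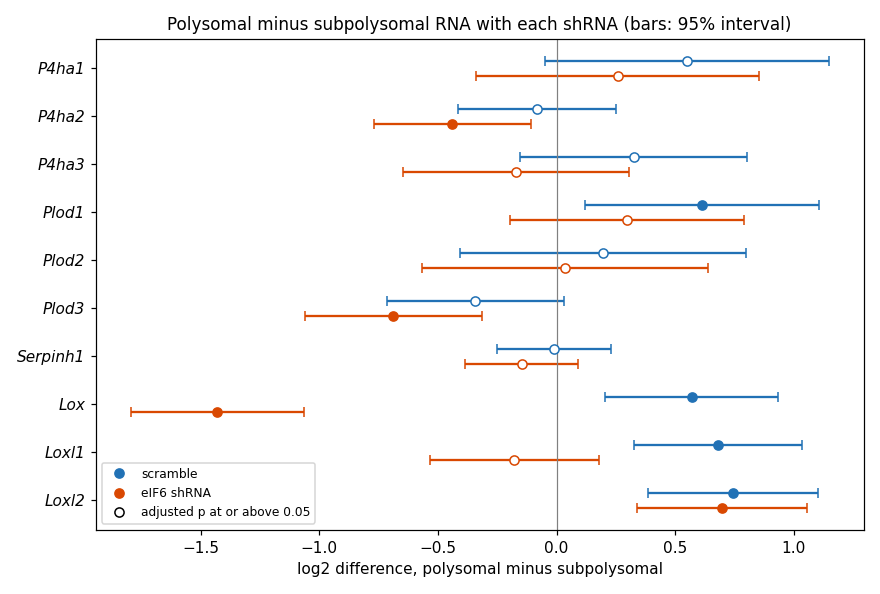
Polysomal minus subpolysomal log2 signal (x axis) of each member (y axis) in scramble and eIF6 shRNA cells, with 95% intervals from limma and filled points for calls at an adjusted p under 0.05. Lox moves from 0.57 in scramble to -1.43 in eIF6 shRNA cells, while Loxl2 stays at 0.744 and 0.697.

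**Figure D5:**
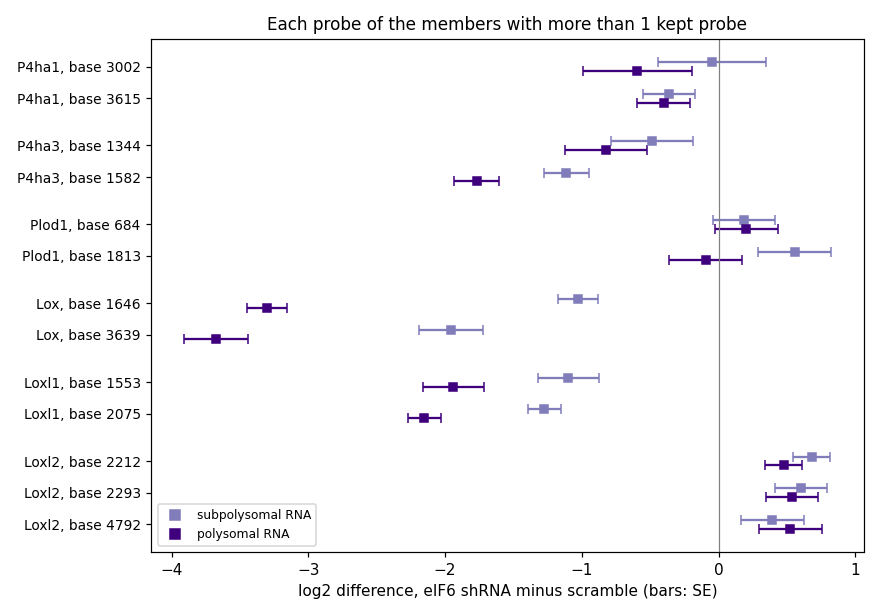
Log2 difference, eIF6 shRNA minus scramble (x axis), of each probe of the members with more than 1 probe that passed the filter, named by its base in the transcript (y axis), in polysomal (dark) and subpolysomal (light) RNA, with bars for the SE. Probes of 1 gene share a direction on polysomes except those of Plod1, at 0.202 and -0.094.

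The genes around the members were counted by lists, which were also chosen with earlier results of these data known. Of all genes, 10.7% were called lower and 11.1% higher on polysomes, and 12.3% and 11.9% in subpolysomal RNA. In translational efficiency 1.1% were called lower and 0.403% higher, and these shares stand beside all lists and markers below. Of 14 tested partners of collagen modification in the endoplasmic reticulum, 6 were lower and 2 higher on polysomes, with a median of -0.239 (log2). In subpolysomal RNA 5 were lower and 4 higher, with a median of 0.199. The 2 that rose on polysomes were Mia2 (1.38, limma adjusted p = 8.39e-06) and Ctage5 (0.501, limma adjusted p = 0.000137). Fkbp10, a prolyl isomerase that acts with lysyl hydroxylation, fell by 2.42 on polysomes (log2, limma adjusted p = 5.37e-09). Crtap, a subunit of the prolyl 3-hydroxylation complex, fell by 2.57 (limma adjusted p = 9.75e-09). Leprel2 and Leprel4, of the prolyl 3-hydroxylase family, also fell, with log2 changes of -1.43 and -1.15. In translational efficiency 4 of the 14 were called, all lower: Crtap (-1.31), Fkbp10 (-1.10), Ppib (-0.806), the cyclophilin of the same complex, and Leprel2 (-0.728).

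Of 13 tested partners outside the cell, 10 were lower and 2 higher on polysomes, with a median of -0.827 (log2). In subpolysomal RNA 4 were lower and 2 higher. Those with the smallest polysomal p were Fn1 (fibronectin, -0.827, limma adjusted p = 3.50e-06), Adamts2 (a procollagen N-proteinase, -2.12, limma adjusted p = 4.14e-06), Pcolce (an enhancer of the C-proteinase, -1.52, limma adjusted p = 0.000494) and Postn (periostin). Postn passed the filter through the 4 scramble polysomal arrays alone and was not well above background on any eIF6 shRNA polysomal array, where it was at least 2.95-fold lower (measured log2 means 4.36 and 1.81, limma adjusted p = 0.000877). Without Postn, 9 of 12 were lower and 2 higher on polysomes. None of the 13 was called in translational efficiency by limma, with 4 at an unadjusted p under 0.05.

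The lysyl oxidases that are no members split as well. Loxl3 fell by 1.5 on polysomes (log2, limma adjusted p = 0.0011). Loxl4 and the other cross-linking enzyme Tgm2 were the 2 that rose, by 0.345 and 0.646 (log2).

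All 10 collagen chains on the list, of types I, III, IV, V and VI and substrates of these enzymes, were lower in both fractions. The medians were -2.67 on polysomes and -1.58 in subpolysomal RNA (log2). Col4a1 and Col4a2 fell less on polysomes (-0.794 and -0.704), with changes in translational efficiency of 0.187 and 0.074, not called. With eIF6 shRNA, Col5a2 was well above background on 2 polysomal and 1 subpolysomal array. The smallest polysomal p values belonged to Col6a3 (-2.94), Col1a2 (-3.53), Col5a1 (-2.72) and Col1a1 (-3.11, log2). In translational efficiency Col1a2 (-2.31, limma adjusted p = 0.000792) and Col6a3 (-0.743, limma adjusted p = 0.0139) were called.

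Other 2-oxoglutarate hydroxylases, share the chemistry but not the substrate. Of 9 tested, 1 was called in each fraction (21.8% and 24.2% of all genes were called). This was Asphd2, with log2 changes of -1.83 on polysomes and -2.03 in subpolysomal RNA. Of 5 genes that supply cofactors, limma called none on polysomes, with 1 at an unadjusted p under 0.05. In subpolysomal RNA 1 was called, the ascorbate transporter Slc23a2, which fell by 0.705 (log2, limma adjusted p = 0.0389).

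Markers of the cells that usually make collagen were counted in the same way. Of 10 measured fibroblast or stellate cell markers out of 11, 9 were lower on polysomes and 7 in subpolysomal RNA, and Col1a1, Col1a2 and Col3a1 among them are also on the collagen list. The log2 of their summed signal was 17.39 to 18.13 on scramble polysomal and 14.82 to 15.48 on eIF6 shRNA polysomal arrays. In subpolysomal RNA it was 17.07 to 17.16 and 15.92 to 16.22. No range overlapped that of the other shRNA. On scramble polysomal arrays most of this sum is Col1a2 and Acta2. Their mean log2 signals there were 16.516 and 15.983, with the other markers at 13.934 or less. The sum therefore says little of those other markers. Vim, a mesenchymal filament, had log2 changes of -0.384 on polysomes and -0.038 in subpolysomal RNA, neither called. Dcn (0.096) and Des (0.015) were not called in subpolysomal RNA, where Des was well above background on 1 array. Pdgfra, not well above background on any eIF6 shRNA array, was at least 7.10-fold lower on polysomes and 4.06-fold lower in subpolysomal RNA. Pdgfra passed the filter through scramble arrays alone. Without it, 8 of 9 markers were lower on polysomes and 6 of 9 in subpolysomal RNA.

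The 8 hepatocyte markers had a summed log2 signal of 18.37 to 18.97 in scramble and 18.51 to 19.00 in eIF6 shRNA cells on polysomes, and of 18.24 to 18.36 and 18.29 to 18.41 in subpolysomal RNA, which overlap. Most of this sum is Krt18, with a mean log2 signal of 18.2 on scramble polysomal arrays, where Krt8 had 15.6 and the others less. The sum therefore says little of the other hepatocyte markers. Gene by gene, Ttr alone was called, higher by 1.15 on polysomes and 1.33 in subpolysomal RNA (log2). Of 4 measured macrophage markers out of 5, Csf1r alone was called, with log2 changes of -1.67 on polysomes and -1.17 in subpolysomal RNA (limma adjusted p = 2.64e-07 and 1.43e-05). Cd68, Emr1 and Ptprc had polysomal log2 changes of 0.118, 0.064 and -0.677. In subpolysomal RNA these were -0.184, 0.127 and 0.099. The log2 of the summed macrophage signal was 8.20 to 8.42 in scramble and 7.62 to 7.83 in eIF6 shRNA cells on polysomes, and 9.38 to 9.64 and 9.03 to 9.34 in subpolysomal RNA, with no overlap in either fraction. Of single genes, 22.4% and 31.5% had no overlap. This sum is mostly Cd68 and Csf1r, while Emr1 and Ptprc were well above background on 12 and 8 of 16 arrays. Of 2 measured endothelial markers out of 4, limma called none, with none at an unadjusted p under 0.05, and their summed ranges overlapped in both fractions. In bulk RNA, fewer cells of a type and less RNA per cell cannot be told apart. The part that a changed mix of cells has in the lower members was not tested.

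RefSeq (GRCm38.p6) gave a promoter, the 250 bases before the gene start, for 6 of the 10 members, without Plod2, Lox, Loxl1 and Loxl2. The core of the hypoxia response element (ACGTG or GCGTG) and the GC box (GGGCGG) were searched on both strands. They were found in 38.6% and 32.7% of 32851 promoters of that length. Of members that fell on polysomes, P4ha2 held 3 hypoxia cores and 2 GC boxes, P4ha3 held 0 and 5, and Serpinh1 held 1 and 1. Of those not called, P4ha1 held 3 and 1, Plod1 held 1 and 2, and Plod3 held 4 and 0. Among these 6, the numbers of each motif overlapped between called and uncalled members, though P4ha3 held no hypoxia core and Plod3 no GC box. Matches that overlap were counted singly, as in the run of GC boxes of P4ha3. The 3 promoters of the called members are printed with the matches in capitals.

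P4ha2, chr11:54100674-54100923, plus strand: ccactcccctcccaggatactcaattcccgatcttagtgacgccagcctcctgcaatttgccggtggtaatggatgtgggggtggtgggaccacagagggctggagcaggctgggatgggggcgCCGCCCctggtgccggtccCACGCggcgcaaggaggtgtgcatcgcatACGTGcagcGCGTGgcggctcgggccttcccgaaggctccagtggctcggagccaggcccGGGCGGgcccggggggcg

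P4ha3, chr7:100285270-100285519, plus strand: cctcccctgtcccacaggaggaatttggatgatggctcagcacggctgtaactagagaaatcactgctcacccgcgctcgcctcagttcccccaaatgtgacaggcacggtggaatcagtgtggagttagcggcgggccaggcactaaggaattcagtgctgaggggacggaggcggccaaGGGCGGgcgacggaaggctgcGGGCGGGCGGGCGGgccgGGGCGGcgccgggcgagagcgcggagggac

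Serpinh1, chr7:99353240-99353489, minus strand: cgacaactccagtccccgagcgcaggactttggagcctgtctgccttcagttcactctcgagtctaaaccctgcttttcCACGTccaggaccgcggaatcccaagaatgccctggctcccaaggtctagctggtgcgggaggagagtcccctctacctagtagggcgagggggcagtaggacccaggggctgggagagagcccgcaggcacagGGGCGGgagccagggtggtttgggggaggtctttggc

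A match is a string of letters and not evidence of binding. Of 16 tested targets of the hypoxia-inducible factors, 4 were lower and 4 higher on polysomes, with a median of 0.031 (log2), and 3 were lower and 1 higher in subpolysomal RNA. Those with the smallest polysomal p were Pfkfb4 (-0.822), Adm (0.457), Ndrg1 (0.798) and Ero1l (-0.842). In translational efficiency 1 of the 16 was called, Pfkfb4, at 0.653 (log2, limma adjusted p = 0.0279).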

How the data were processed

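Polysomal and subpolysomal RNA of 16 AML12 samples, 4 per group, was read on one-colour Agilent arrays. The authors deposited for each array the spot intensity after background correction, without normalization between arrays. Their deposited log2 values, quantile normalized, correlated at 0.994 to 1.00 with these log2 intensities. The labels name Feature Extraction 10.7.7.1, and the file headers name 10.7.3.1.

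Outlier spots were left out (47 values missing), spots of a probe were averaged, and probes were kept if well above background on 2 or more arrays of a group (25262 of 39429). Their log2 intensities were quantile normalized over 16 arrays and averaged per gene name. limma 3.58.1 in R 4.3.3, with the data.table package (1.17.8), fitted 4 group means, with Benjamini-Hochberg adjustment over 19367 genes. The text names the 10 members, Eif6, and of each partner list the genes called in translational efficiency and up to 4 with the smallest polysomal p. Mia2, Ctage5, Loxl3, Loxl4, Tgm2, Col4a1, Col4a2, Col5a2, Asphd2, Slc23a2 and the markers named singly were chosen after their values were seen. The genes most like a member were searched for the 4 members with the smallest polysomal p. Members and lists were chosen with earlier results of these data known.

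Tested on simulated data, the polysomal fit found 91% of changes of 1.5 and 57% of changes of 0.75 (log2) among 200 changed genes of 19320, with 15 unchanged genes called. For translational efficiency these were 81% and 32%, with 6 called. Alternatives were other scalings (75th percentile, 7 spike-in probes, each fraction alone), normexp (offset 50), normalization before the filter, 3 other filters, the brightest probe, the authors' log2 values, slide or replicate number in the model, replicates left out, and the methods' t-test. Leaving out single arrays far from their group was chosen after seeing the data. Probe coordinates (mm9) are those of the files. Python 3.11.15 with matplotlib 3.10.9 drew the figures.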

Additional observations from a re-analysis of the deposited data

Results flagged for a closer look

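In a group of 4 arrays, the highest or lowest array was set against the others by Dixon's ratio at its 95% critical value. Chance gives about 1 in 20 groups, and here it was passed in 6 of the 40 combinations of member and group. Of these, 5 lie on the arrays of scramble replicate 4. On scramble polysomal replicate 4, P4ha1 had a log2 signal of 6.11 where the others had 5.28 to 5.42, Plod3 had 12.08 where the others had 11.15 to 11.20, and Loxl2 had 9.56 where the others had 9.02 to 9.06. On scramble subpolysomal replicate 4, P4ha3 was at 7.31 with the others at 6.0 to 6.23, and Plod2 was at 6.54 with the others at 7.47 to 7.59. In polysomal RNA, replicate 4 was the highest array of its group with both shRNAs for P4ha1, P4ha2, Plod1, Plod2, Plod3, Lox and Loxl2, and the cause was not tested. Serpinh1 on scramble polysomal replicate 2 was at 13.14 with the others at 13.05 to 13.06, a small gap in a tight group. The decrease of Lox by eIF6 shRNA differed between the fractions, by -2.0 on the log2 scale in the limma fit (adjusted p = 0.000485).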

How the results depend on the processing

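Over the alternatives, 847 of the member values kept their direction and side of the threshold, 36 lost and 33 gained a call, and 44 changed sign. The causes were not tested. With spike-in scaling 3 members were called on polysomes, 1 in subpolysomal RNA and 10 in the fraction difference of scramble cells. In translational efficiency limma then called 0, with 1 at an unadjusted p under 0.05, and the methods' t-test on the quantile normalized values called 1. In translational efficiency 2 members were called with 75th percentile scaling, with each fraction normalized alone, with normexp and with the brightest probe, in each case Lox and Loxl1. With the brightest probe 2 were called in the fraction difference of scramble cells. Without single replicates or arrays the counts ranged from 4 to 7 on polysomes, 3 to 8 in subpolysomal RNA, 1 to 3 in translational efficiency, 3 to 6 in scramble and 3 to 4 in eIF6 shRNA cells. The 3 in translational efficiency, Lox, Loxl1 and P4ha3, came without replicate 4 or without scramble subpolysomal replicate 4. The 8 in subpolysomal RNA came without replicate 4, with Plod1 (0.684), Plod2 (-1.08) and Plod3 (0.358, log2) added. Counts over all genes moved as well. In subpolysomal RNA 3109 genes were called lower and 3050 higher without replicate 4, and 1405 and 1220 without replicate 1, against 2391 and 2295 with all arrays. In translational efficiency 181 and 114 were called without replicate 4, against 214 and 78. P4ha2 on polysomes was not called without replicate 1 or without replicate 3 (limma adjusted p = 0.061 and 0.123), nor P4ha3 in subpolysomal RNA without replicate 3 (limma adjusted p = 0.0708). Without replicate 1, 2 or 3, Loxl2 was called in neither fraction (limma adjusted p from 0.092 to 0.261 on polysomes and from 0.0612 to 0.151 in subpolysomal RNA), and the fraction difference was not called for P4ha2 in eIF6 shRNA cells (limma adjusted p from 0.0536 to 0.144) or for Plod1 in scramble cells (limma adjusted p from 0.0966 to 0.119). That of Plod1 was also lost with normexp, without a filter and with the brightest probe (limma adjusted p = 0.0559, 0.0588 and 0.0623). The methods' t-test, adjusted, called 4, 5, 1, 3 and 4 members in the order polysomal, subpolysomal, translational efficiency, scramble and eIF6 shRNA cells, and 6, 6, 2, 3 and 4 at its unadjusted threshold. Of the 19320 genes with a value on every array, it called 3181, 5028, 85, 10625 and 10853 in that order, adjusted. Unadjusted it called 5402, 7296, 2177, 11693 and 11848 of them.

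With the replicate number as a block, 6, 5, 1, 4 and 4 members were called in the same order, equal to the counts without it. Same-numbered arrays correlated at -0.157 to 0.413 in their deviations from the group means. In no pair of groups did every array correlate best with its own number. The main fit left the numbers out, but low correlations cannot show that same-numbered samples were unpaired. The highest correlation was between eIF6 shRNA and scramble in polysomal RNA, where different numbers reached 0.255 and 2 of 4 arrays correlated best with their own number.

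Values that changed sign are log2 differences. For polysomal minus subpolysomal RNA with spike-in scaling, in scramble cells these were P4ha2 1.63, Plod3 1.57 and Serpinh1 1.94, and in eIF6 shRNA cells P4ha2 1.05, P4ha3 0.815, Plod3 1.02, Serpinh1 1.58 and Loxl1 1.30. With 75th percentile scaling they were P4ha1 -0.037, P4ha3 -0.113, Plod2 -0.118 and Serpinh1 0.079 in scramble cells, and P4ha1 -0.343, Plod1 -0.324 and Plod2 -0.395 in eIF6 shRNA cells. Serpinh1 in scramble cells was 0.020 with normexp, and Plod1 in eIF6 shRNA cells was -0.034 with the filter on all 16 arrays and -0.043 with the brightest probe. The polysomal change of Plod1 was -0.032 with the 75th percentile, -0.482 with spike-ins, -0.086 with the filter on all 16 arrays and -0.094 with the brightest probe. The change in translational efficiency of Loxl2 was 0.001 with each fraction normalized alone, 0.004 with normexp and 0.130 with the brightest probe. Without single replicates or arrays, the change in translational efficiency ran from -0.202 to 0.082 for Loxl2, -0.523 to 0.075 for P4ha1 and -0.414 to 0.222 for Plod2. The polysomal change ran from -0.099 to 0.182 for Plod1 and -0.171 to 0.143 for Plod3, and the subpolysomal change of P4ha1 from -0.467 to 0.063. The fraction difference ran from -0.189 to 0.016 for P4ha2, -0.185 to 0.450 for Plod2 and -0.052 to 0.044 for Serpinh1 in scramble cells, and from -0.020 to 0.515 for P4ha1 and -0.142 to 0.189 for Plod2 in eIF6 shRNA cells. Of the values that changed sign, P4ha2 and Plod3 in eIF6 shRNA cells had been called lower with quantile normalization, and the others had not been called.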

Other observations

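Genes whose log2 signal went most like that of a member were listed by Pearson's r over the 16 arrays, among 14554 genes well above background on all of them. The arrays fall into 4 groups, so r mostly reads the differences between groups, and it is given as a description. For Lox they were Ednra (r = 0.988), an endothelin receptor, Dpep1 (0.986), a membrane dipeptidase, and Fkbp10 (0.983), the prolyl isomerase described above. Their polysomal log2 changes were -3.05, -4.18 and -2.42. All 3 were called lower in translational efficiency by limma (-1.41, -2.58 and -1.10), but they were chosen by likeness to Lox, whose pattern holds that loss. For Loxl1 they were Sdcbp2 (0.992), Tmem119 (0.986) and Thy1 (0.980), a surface protein of fibroblasts, with polysomal changes of -1.27, -2.19 and -2.45.

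For Serpinh1 they were Adamts1 (r = 0.975), a secreted protease of the ADAMTS family, Mn1 (0.957) and Has2 (0.956), which makes hyaluronan. Their polysomal log2 changes were -1.22, -2.04 and -3.07, and none was called in translational efficiency by limma (adjusted p = 0.5, 0.978 and 0.0557). For P4ha3 they were Nnmt (0.944), Ptprn (0.944) and Sdcbp2 (0.939). Between members, r over the 16 arrays was 0.937 for P4ha3 with Loxl1, 0.922 for Lox with Serpinh1, 0.900 for Lox with Loxl1 and -0.547 for Lox with Loxl2.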
